A study of Mus musculus with 19 samples.

Results

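Isolated mouse hearts on whole-transcript arrays fell into hearts with a high and hearts with a low level of the transcript of Bmp10, a growth factor made by right atrial muscle. The sets were chosen by the log2 array value of Bmp10, which 1 probe set reads: a heart above 6.5 was counted as Bmp10-high and any other as Bmp10-low. This put 10 of the 19 hearts in the Bmp10-high set and 9 in the Bmp10-low set. Every heart had been mounted on a Langendorff apparatus, which feeds the coronary vessels through the aorta, and had gone through stabilisation, no-flow ischemia and reperfusion of 20 min each before freezing, so no heart in the labels is free of ischemia. Wild-type C57Bl6J hearts at ZT0 (n = 7), wild-type C57Bl6J hearts at ZT12 (n = 7) and hearts labelled Reverb alpha KO at ZT12 (n = 5, with no strain given) made up the sample groups. ZT is zeitgeber time, counted in hours from lights on. The labels give neither the age nor the sex of the mice, and they name no batch, chamber or dissection step.

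Bmp10 is a ligand of the bone morphogenetic protein (BMP) family. In the adult mouse it is made mainly by muscle cells of the right atrium, is released into the blood and acts on endothelial cells through the receptor ALK1 (Acvrl1) and the co-receptor endoglin (Eng). Hamp encodes hepcidin, the hormone that binds the iron exporter ferroportin (Slc40a1). The liver is its main source, and in the mouse heart its transcript is known from the right atrium. Muscle of both atria shares other transcripts, such as the atrial light chains Myl7 and Myl4, sarcolipin (Sln) and atrial natriuretic peptide (Nppa). Ventricular muscle uses the light chains Myl2 and Myl3.

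The promoters of Bmp10, which made the sets, and of the 4 called genes with the smallest p between them are shown. Each sequence is a RefSeq window of build GRCm38.p6 that runs from 250 bases before the transcript start to 50 after it, read 5′ to 3′ on the gene's own strand. Capitals mark GGCGCC (a GC-rich element known to bind SMAD proteins of the BMP pathway), AGATAA and TGATAA (forms of the GATA factor site), AGGTCA (the nuclear receptor half-site), AGGTGTG (the T-box site) and CACGTG (the E-box), searched on both strands, so that TTATCT is AGATAA on the other strand. Bmp10 is at chr6:87428744-87429043 on the plus strand, Hamp at chr7:30943980-30944279 on the minus strand, Cacna2d2 at chr9:107399630-107399929 on the plus strand, Cxcl13 at chr5:95956689-95956988 on the plus strand and Vsig4 at chrX:96293389-96293688 on the minus strand. Likewise TGACCT is AGGTCA on the other strand, and the Vsig4 window holds no searched motif.
Bmp10: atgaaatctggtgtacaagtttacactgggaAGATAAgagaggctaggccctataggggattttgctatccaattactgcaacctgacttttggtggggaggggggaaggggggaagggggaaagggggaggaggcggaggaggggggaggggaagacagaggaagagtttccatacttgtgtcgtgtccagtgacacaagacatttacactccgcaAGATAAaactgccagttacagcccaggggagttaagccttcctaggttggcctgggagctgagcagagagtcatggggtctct
Hamp: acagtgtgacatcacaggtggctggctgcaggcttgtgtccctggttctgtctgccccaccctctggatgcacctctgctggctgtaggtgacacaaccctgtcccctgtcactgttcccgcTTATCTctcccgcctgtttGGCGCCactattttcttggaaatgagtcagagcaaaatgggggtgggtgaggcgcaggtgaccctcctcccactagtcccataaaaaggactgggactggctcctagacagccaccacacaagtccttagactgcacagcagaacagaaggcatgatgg
Cacna2d2: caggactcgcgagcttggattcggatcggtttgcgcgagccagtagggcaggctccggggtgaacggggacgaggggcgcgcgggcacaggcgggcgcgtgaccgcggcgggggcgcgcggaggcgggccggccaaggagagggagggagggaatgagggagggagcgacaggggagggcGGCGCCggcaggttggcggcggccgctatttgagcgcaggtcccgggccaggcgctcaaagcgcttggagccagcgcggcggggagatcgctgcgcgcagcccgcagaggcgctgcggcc
Cxcl13: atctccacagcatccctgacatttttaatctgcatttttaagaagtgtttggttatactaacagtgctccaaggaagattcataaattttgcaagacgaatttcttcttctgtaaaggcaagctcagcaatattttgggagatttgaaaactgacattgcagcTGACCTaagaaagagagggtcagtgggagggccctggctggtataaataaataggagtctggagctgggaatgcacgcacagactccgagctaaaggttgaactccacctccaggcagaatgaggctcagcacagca
Vsig4: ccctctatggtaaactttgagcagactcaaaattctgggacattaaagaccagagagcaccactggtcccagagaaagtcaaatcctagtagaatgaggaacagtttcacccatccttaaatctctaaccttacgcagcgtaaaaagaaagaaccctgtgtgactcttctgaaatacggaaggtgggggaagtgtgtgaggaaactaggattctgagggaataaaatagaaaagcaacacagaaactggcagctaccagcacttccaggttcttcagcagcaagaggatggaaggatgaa
Of the 17 genes looked up (Bmp10 and the 16 genes called below), 14 had a window in the RefSeq table, with 16 windows among them. GGCGCC was found in windows of 7 genes (Cacna2d2, Hamp, Id2, Peg3, Fam122b, Rgs6 and Plppr5), and 11.9% of all 32851 windows in the table held it. AGATAA was found for 4 genes, namely Bmp10, Hamp, Slc39a8 and Sfrp5, against 11.2% of all windows. TGATAA was found for 2 genes against 9.05% of windows, AGGTCA for 2 against 16.3%, CACGTG for 1 against 7.15% and AGGTGTG for 0 against 5.84%. These counts are of genes with a match in any of their windows, while the percentages are of single windows, so the figures are not in the same unit. The letter matches describe these windows and were not tested.

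The split followed the sample groups in part. Of the wild-type hearts at ZT0, 6 were Bmp10-high and 1 (replicate 1) was Bmp10-low. At ZT12, 3 wild-type hearts were Bmp10-high (replicates 1, 2 and 7) and 4 were Bmp10-low (replicates 3 to 6). Of the hearts labelled knockout, 1 was Bmp10-high (replicate 1) and 4 were Bmp10-low (replicates 2 to 5). Differences between the sets were therefore fitted with the sample group as a covariate. Array values of the targeted gene itself, Nr1d1, ran from 5.76 to 6.67 at ZT0, from 6.46 to 7.28 in wild type at ZT12 and from 6.30 to 6.51 in the hearts labelled knockout. Which exons its probes read relative to the deletion is not given in the sources used here, so the genotype rests on the labels.

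Bmp10 values formed 2 separate clusters. They ran from 9.01 to 10.30 in the Bmp10-high hearts, with a median of 9.97, and from 2.66 to 4.15 in the Bmp10-low hearts, with a median of 3.47. The heart just inside the threshold was knockout replicate 1 at 9.01 and the heart just outside was knockout replicate 3 at 4.15, so thresholds of 6 and 7 gave the same sets. Because these values made the sets, they are a description and Bmp10 received no test.

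Some Bmp10-low hearts also stood apart in the muscle genes common to both atria. In 4 of them (wild-type ZT12 replicate 5 and knockout replicates 2, 4 and 5) Myl7 was between 4.05 and 5.32. The other 5 Bmp10-low hearts had Myl7 at 7.49 to 9.30, which overlapped the 8.31 to 9.70 of the Bmp10-high hearts. The same 4 hearts were low in Sln (3.64 to 5.80, against 9.56 to 10.56 in Bmp10-high hearts) and Myl4 (3.89 to 4.53 against 5.91 to 6.63). They were not low in every listed atrial gene: the potassium channel gene Kcna5 lay between 5.20 and 5.62 in them against 4.61 to 5.37, and the muscarinic receptor gene Chrm2 between 8.86 and 9.39 against 8.82 to 9.50. Results are given with all 19 arrays and without the 4 arrays with Myl7 under 6. Array medians lay between 3.25 and 3.32 in all hearts, and correlations between arrays between 0.972 and 0.985.

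**Figure D1:**
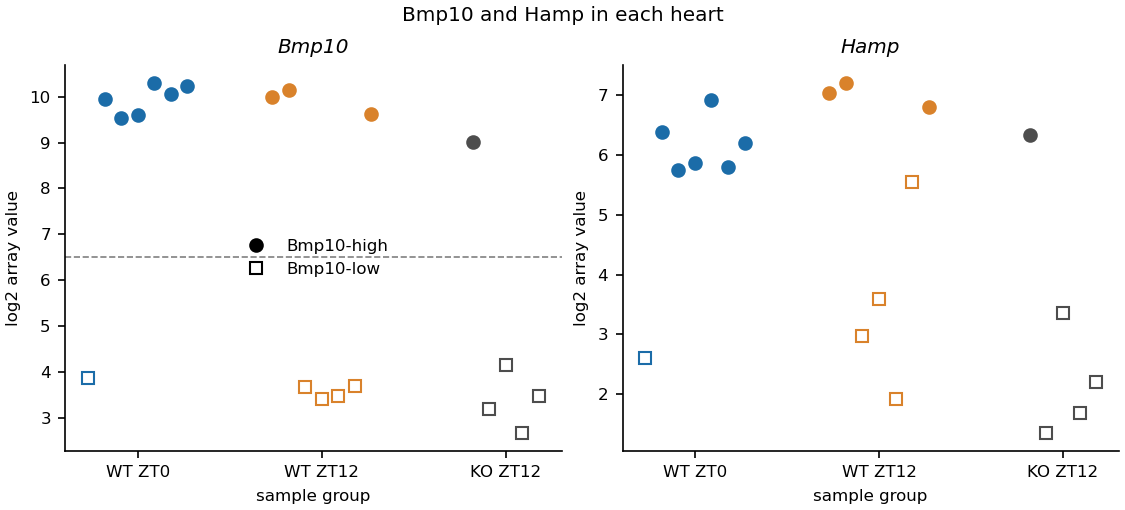
Log2 array values of Bmp10 (left) and Hamp (right) for each heart, by sample group. Filled circles are Bmp10-high and open squares Bmp10-low hearts, and the dashed line is the threshold of 6.5. Bmp10 leaves a gap between 4.15 and 9.01. The open square at 5.55 in the Hamp panel is wild-type ZT12 replicate 6, just below the lowest filled circle at 5.74.

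Between the sets, 16 of 22179 genes were called, all of them higher in Bmp10-high hearts (0.0721% of the genes tested). They included the iron hormone gene Hamp, the chemokine gene Cxcl13, the complement receptor gene Vsig4 and Cacna2d2, which encodes an accessory subunit of voltage-gated calcium channels. Fold differences ran from 1.33 for Plppr5 to 12.8 for Hamp. A gene was called at an adjusted p under 0.05 (limma, two-sided, Benjamini-Hochberg over all genes tested). No gene was called lower in Bmp10-high hearts, although 623 had an unadjusted p under 0.05 in that direction (2.81%), against 875 in the other (3.95%) and 1498 in all (6.75%). The count moved with single hearts: it was 8 without wild-type ZT0 replicate 1, 4 without wild-type ZT12 replicate 2, 10 without replicate 3, 8 without replicate 5 or replicate 7, 6 without knockout replicate 1 and 28 without knockout replicate 3. The sets were drawn from a measured level on the same arrays, so a call says that a gene varied with Bmp10 across hearts. In whole-heart RNA, fewer cells of a type and less RNA per cell cannot be told apart.

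Hamp differed most in fold. In Bmp10-high hearts it lay between 5.74 and 7.21 with a median of 6.36, and in Bmp10-low hearts between 1.35 and 5.55 with a median of 2.61. The sets did not overlap, but wild-type ZT12 replicate 6 reached 5.55 with Bmp10 at 3.70, and the next highest Bmp10-low heart was wild-type ZT12 replicate 4 at 3.59. The log2 difference was 3.67 (SE 0.40), or 12.8-fold, with an adjusted p of 0.000141. Without the 4 arrays with Myl7 under 6 it was 3.15 (adjusted p = 0.00067). Since Hamp was named as a marker along with the rule, its call is not independent of how the sets were proposed. The albumin gene Alb, a defining transcript of liver, lay between 2.05 and 2.56 in Bmp10-high and between 2.04 and 2.56 in Bmp10-low hearts, near the bottom of the array's range, while Ahsg, another of the 11 hepatocyte genes measured, lay between 5.39 and 6.33 in Bmp10-high and between 4.85 and 6.53 in Bmp10-low hearts (0.70 higher, adjusted p = 0.394). The median of the 11 genes was -0.064 and 0 were called. The part of liver transcripts in the Hamp difference was not tested.

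The label of these hearts as holding or lacking right atrial transcripts rests on these 2 markers. Bmp10 made the sets and Hamp was named with the rule, so that both separate them is no independent support for the label. By Hamp alone, wild-type ZT12 replicate 6 (5.55) lay nearer the lowest Bmp10-high heart (5.74) than the next Bmp10-low heart (3.59). The sets are therefore called by their Bmp10 level.

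Cacna2d2 had the smallest p of all genes. It lay between 4.94 and 5.47 in Bmp10-high hearts with a median of 5.30, and between 3.65 and 4.26 in Bmp10-low hearts with a median of 4.16. No heart overlapped with the other set. The Bmp10-low hearts with Myl7 present lay between 4.16 and 4.26, and those with Myl7 under 6 between 3.65 and 4.20. Means were 5.30 ± 0.15 (SD, n = 10) and 4.07 ± 0.20 (SD, n = 9), a difference of 1.19 (SE 0.096) or 2.28-fold (limma adjusted p = 1.76e-06). It passed without any single array and in all 15 other settings.

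The B cell chemokine gene Cxcl13 lay between 6.001 and 8.94 in Bmp10-high hearts with a median of 6.67. In Bmp10-low hearts it lay between 3.71 and 4.88 with a median of 4.37, so the sets did not overlap. The highest value, 8.94, came from wild-type ZT12 replicate 2. The log2 difference was 2.64 (SE 0.33), 6.22-fold, with an adjusted p of 0.000973 by limma. Without the 4 arrays with Myl7 under 6 it was 2.61 (adjusted p = 0.026), and leaving out each array in turn gave 2.23 to 2.97 (adjusted p 0.000119 to 0.0104).

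Vsig4, the gene of a complement receptor known from resident macrophages, lay between 4.27 and 5.71 (median 5.09) in Bmp10-high and between 2.87 and 4.15 (median 3.33) in Bmp10-low hearts. The sets met closely, the lowest Bmp10-high heart being knockout replicate 1 at 4.27. The difference was 1.47 (SE 0.22), 2.78-fold (limma adjusted p = 0.00783), and 1.6004 without the 4 arrays (adjusted p = 0.021). The call was lost without wild-type ZT0 replicate 1 (adjusted p = 0.0586). None of the 9 listed macrophage markers was called, and their median difference was 0.089, with Cd68 at 0.25 (adjusted p = 0.648) and the receptor gene Csf1r at 0.18 (adjusted p = 0.870). A set of 5 macrophage genes (Timd4, Folr2, Cd5l, Cd163 and Marco) was picked after the values were seen. Cd163 among them was already one of the 9 listed. Of the 5, 0 were called, with differences from -0.058 to 0.20. Cd5l and Marco had medians of 1.80 and 3.23 in Bmp10-high hearts, under the array medians of 3.25 to 3.32, so their lack of a call says little.

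**Figure D2:**
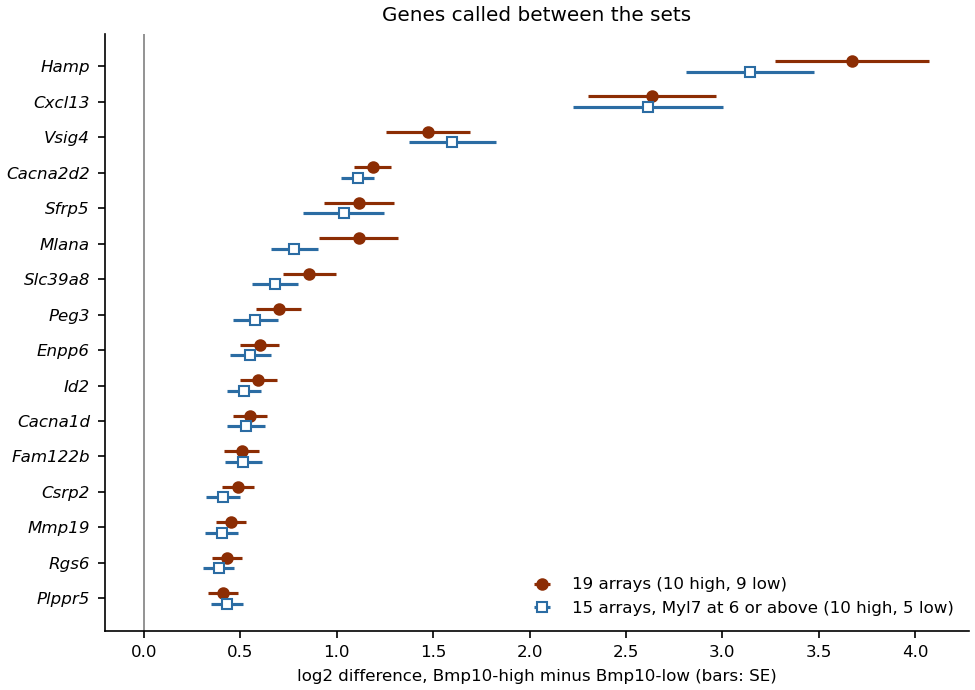
Log2 difference, Bmp10-high minus Bmp10-low, of the 16 called genes with all 19 arrays (filled circles) and without the 4 arrays with Myl7 under 6 (open squares). Bars are SE. All points lie above 0, from 0.41 for Plppr5 to 3.67 for Hamp with all arrays.

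Calcium channel and pacemaker genes were among the rest. Cacna1d encodes the pore subunit of the L-type channel Cav1.3 of sinus node and atrial cells. It lay between 3.74 and 4.26 in Bmp10-high and between 3.12 and 3.80 in Bmp10-low hearts, a 1.46-fold difference (log2 0.55, SE 0.088; limma adjusted p = 0.0143). The values of the sets overlapped slightly. Rgs6, which in the mouse dampens vagal signalling in the sinus node, lay between 5.10 and 5.51 in Bmp10-high and between 4.71 and 5.19 in Bmp10-low hearts (1.35-fold, adjusted p = 0.0311). Together these were the 2 called genes among 12 measured of the sinus node and conduction list (median 0.11), against 0.0721% of all genes called. Of the 12, 4 were higher at an unadjusted p under 0.05, against 3.95% of all genes. The list's genes Hcn4 (difference 0.09, 95% interval -0.22 to 0.39), Tbx3 (0.07, interval -0.13 to 0.26) and Shox2 (-0.03, interval -0.19 to 0.12) did not pass. Shox2 lay between 2.71 and 3.19 in all hearts, under the array medians of 3.25 to 3.32, so its lack of a call says little. Vsnl1, which encodes a calcium sensor, was at 0.70 (adjusted p = 0.262) and Cpne5, of a phospholipid-binding protein, at 0.67 (adjusted p = 0.236). Of 31 measured ion channel and calcium handling genes, 2 were called higher (Cacna1d and Cacna2d2) and 0 lower, with a median of 0.0078. Of all genes tested, 0.0721% were called. At an unadjusted p under 0.05, 5 of the 31 were higher and 0 lower, against 3.95% and 2.81% of all genes. Cacna1h, the pore of a T-type calcium channel, did not overlap between the sets (4.80 to 5.46 against 3.86 to 4.65) but did not pass (0.67, adjusted p = 0.0860).

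Of the BMP signalling list, 1 gene was called. Id2, which encodes an inhibitor of helix-loop-helix factors and is a known BMP target, lay between 6.48 and 7.002 in Bmp10-high hearts with a median of 6.65, and between 5.87 and 6.45 in Bmp10-low hearts with a median of 6.14. The sets did not overlap, and the difference was 0.59 (SE 0.096), 1.51-fold (limma adjusted p = 0.0148). It was the called gene among 31 measured in the BMP list, whose median was 0.034, against 0.0721% of all genes called. Of the 31, 6 were higher at an unadjusted p under 0.05 and 0 lower, against 3.95% and 2.81% of all genes. Other BMP targets gave 0.34 for Id3 (adjusted p = 0.0909), 0.28 for Smad6 (0.300) and 0.23 for Smad7 (0.648), which encode an inhibitor of helix-loop-helix factors and inhibitory SMADs, but -0.03 for Id1 (0.977). Of the receptors of Bmp10, Acvrl1 was at -0.07 (adjusted p = 0.956) and Eng at 0.23 (adjusted p = 0.286). The BMP antagonist gene Chrdl1 was at 0.47 (adjusted p = 0.462). Sfrp5, the gene of a secreted Wnt inhibitor and on no list, was also called and lay between 3.29 and 4.86 in Bmp10-high and between 2.69 and 3.53 in Bmp10-low hearts (log2 difference 1.11, 2.16-fold, adjusted p = 0.0148).

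Iron genes other than Hamp did not pass. Of 17 measured genes of the iron list 1 was called, namely Hamp, against 0.0721% of all genes, and the list's median was 0.0070. Ferroportin (Slc40a1), the target of hepcidin, was at 0.09 (adjusted p = 0.968, 95% interval -0.20 to 0.39), and the heme oxygenase gene Hmox1 at 0.51 (adjusted p = 0.803). A metal transporter outside that list was called: Slc39a8, which carries zinc, manganese and iron, lay between 4.43 and 5.14 in Bmp10-high and between 3.39 and 4.61 in Bmp10-low hearts. The difference was 0.86 (SE 0.14), 1.81-fold, with an adjusted p of 0.0143 by limma.

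The remaining 7 called genes had varied roles. Mlana, known as a melanosome protein of pigment cells, was 2.16-fold higher (log2 1.11, adjusted p = 0.0375). It lay between 4.76 and 5.34 in Bmp10-high hearts, between 3.97 and 5.01 in the 5 Bmp10-low hearts with Myl7 present and between 3.14 and 3.94 in the 4 without. Of 5 other pigment cell genes picked after the values were seen (Dct, Tyr, Tyrp1, Pmel and Mitf), 0 were called, with differences from -0.24 to 0.07. Tyr and Tyrp1 had medians of 1.81 and 2.57 in Bmp10-high hearts, under the array medians of 3.25 to 3.32, so their lack of a call says little. Peg3, an imprinted gene of a zinc-finger protein, was at 0.70 (1.63-fold, adjusted p = 0.0166) and Enpp6, of a choline phosphodiesterase, at 0.60 (1.52-fold, adjusted p = 0.0166). Fam122b was at 0.51 (1.42-fold, adjusted p = 0.0271). Mmp19, of a matrix metallopeptidase, lay between 4.14 and 4.55 against 3.74 and 4.07 with no overlap (0.45, adjusted p = 0.0166). Csrp2, of a LIM domain protein known from smooth muscle, was at 0.49 (adjusted p = 0.0208), and Plppr5, of a lipid phosphatase-related membrane protein, at 0.41 (adjusted p = 0.0375). Mmp19, Csrp2 and Plppr5 lay outside the rule for naming genes and were named after their values were seen. Of the 16 called genes, 6 did not overlap between the sets (Cacna2d2, Hamp, Cxcl13, Vsig4, Id2 and Mmp19) and 10 did.

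Most of the smaller differences crossed the threshold for calling when single arrays were left out, while Hamp, Cacna2d2 and Cxcl13 passed without any of the 19 arrays. The differences themselves moved less: leaving out each array in turn gave 0.80 to 0.94 for Slc39a8, 0.55 to 0.73 for Id2, 0.41 to 0.48 for Rgs6 and 0.98 to 1.22 for Mlana. Slc39a8 was lost without wild-type ZT12 replicate 2 or knockout replicate 1 (adjusted p up to 0.138) and Cacna1d without wild-type ZT0 replicate 1 or wild-type ZT12 replicate 2 (up to 0.0907). Id2 was lost without wild-type ZT12 replicate 2 or 7 or knockout replicate 1 (up to 0.143), and Sfrp5 without wild-type ZT0 replicate 1, wild-type ZT12 replicate 2 or knockout replicate 1 (up to 0.138). Mmp19 was lost without wild-type ZT12 replicate 2, 5 or 7 or knockout replicate 1, and Enpp6 and Csrp2 without these or wild-type ZT12 replicate 3 (up to 0.193 for Csrp2). Peg3 was lost without wild-type ZT0 replicate 1 or any array that ended the call for Mmp19 (up to 0.143). Fam122b was lost without wild-type ZT0 replicate 1 or wild-type ZT12 replicates 1 to 5 or 7 (up to 0.109). Rgs6 was lost without wild-type ZT0 replicate 1, any wild-type ZT12 array other than replicate 4, or knockout replicate 1 or 2 (up to 0.143). Plppr5 passed only without wild-type ZT0 replicate 3, 4, 5 or 7, wild-type ZT12 replicate 4 or knockout replicate 3, 4 or 5, and was lost without the 11 others (up to 0.162). Mlana passed without wild-type ZT0 replicate 7, wild-type ZT12 replicate 6 or knockout replicate 2 or 3 and was lost without any other array (up to 0.218).

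Over all genes tested, every Bmp10-high heart lay above every Bmp10-low heart for 14 genes (0.0631%) and below for 1 (0.00451%). Besides the 6 called genes these were Olfml2b (difference 0.48, adjusted p = 0.0641), the calcium release channel gene Ryr3 (0.62, adjusted p = 0.0656), Dkk3, Comp, Cacna1h, the langerin gene Cd207 (0.45, adjusted p = 0.266), the ceramide synthase gene Cers6 (0.31, adjusted p = 0.322) and Tppp3 (0.39, adjusted p = 0.426). The gene that lay below was Myo10, of an unconventional myosin, at -0.16 (adjusted p = 0.632). Some gaps were narrow. The lowest Bmp10-high and highest Bmp10-low hearts were at 5.633 and 5.631 for Olfml2b and at 2.847 and 2.840 for Ryr3. For Myo10 the highest Bmp10-high heart was at 7.427 and the lowest Bmp10-low heart at 7.428. Those of these genes that are on no list were named after their values were seen.

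**Figure D3:**
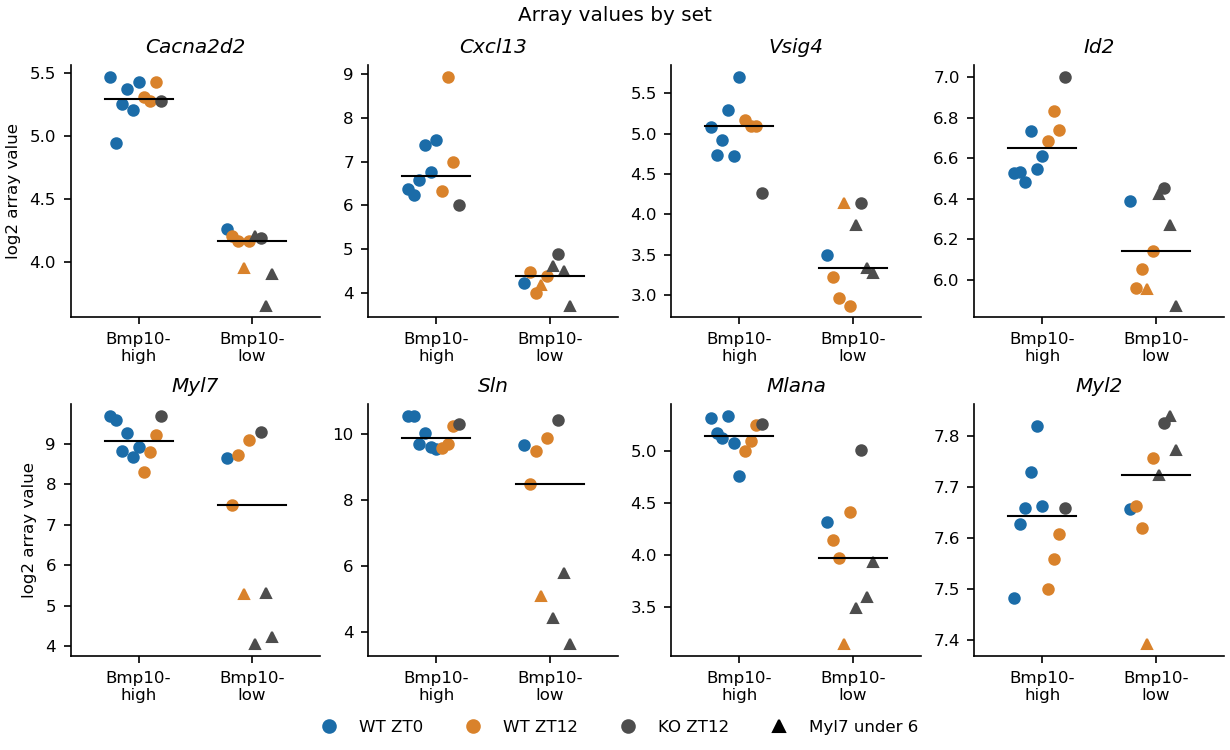
Log2 array values of 8 genes in Bmp10-high and Bmp10-low hearts. Colours give the sample group, triangles mark the 4 hearts with Myl7 under 6, and lines are set medians. Cacna2d2, Cxcl13, Vsig4 and Id2 separate the sets, the triangles lie below the other hearts in Myl7 and Sln, and Myl2 overlaps between the sets.

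Muscle genes of both atria had a median difference above 0 with a single call. Of 20 measured genes 1 was called higher (Cacna2d2), 0 lower and 19 did not pass, against 0.0721% of all genes called. Of the 20, 19 were above 0, against 10569 of all 22179 genes tested, and 13 were higher at an unadjusted p under 0.05, against 3.95% of all genes. The median difference was 0.52, and 0.26 without the 4 arrays with Myl7 under 6, beside -0.0062 over all genes tested. The members' summed linear level, as log2 of its mean per gene, ran from 9.02 to 9.43 in Bmp10-high and from 7.78 to 9.29 in Bmp10-low hearts. Myl7 lay between 8.31 and 9.70 in Bmp10-high and between 4.05 and 9.30 in Bmp10-low hearts (difference 1.65, adjusted p = 0.693), and the difference was 0.40 without the 4 arrays. Sln, the sarcolipin gene, gave 1.91 (adjusted p = 0.714) and 0.38 without the 4 arrays. Nppa lay between 12.52 and 12.80 against 10.99 and 12.65, with differences of 0.60 (adjusted p = 0.610) and 0.19. For the myosin-binding protein gene Mybphl the values were 1.501 (adjusted p = 0.610) and 0.52, and for Myl4 they were 0.93 (adjusted p = 0.566) and 0.38.

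Dkk3, a secreted glycoprotein gene of the atrial list, separated the sets. It lay between 7.04 and 7.39 in Bmp10-high hearts, between 5.38 and 6.86 in the Bmp10-low hearts with Myl7 present and between 4.21 and 5.21 in those without. The sets did not overlap, and the difference of 1.54 (SE 0.31) did not pass with all arrays (adjusted p = 0.0752). Without the 4 arrays it was 1.06 and passed (adjusted p = 0.0313). Etv1, an atrial transcription factor gene, was at 0.47 in both fits (adjusted p = 0.0684 and 0.400).

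Without those 4 arrays, 6 genes were called higher (0.0271% of the genes tested) and 0 lower. They were Dkk3 and 5 of the 16 genes above: Cacna2d2 (1.11, adjusted p = 1.89e-05), Hamp, Cxcl13, Vsig4 and Mlana (0.78, adjusted p = 0.031). The other 11 stayed above 0, with adjusted p between 0.0645 for Id2 and 0.210 for Csrp2. Fitted with the mean log2 value of the atrial list as a covariate, a list that holds Cacna2d2 itself and a setting added after the data were seen, 4 genes were called (Cacna2d2, Hamp, Cxcl13 and Vsig4).

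Ventricular and general muscle genes gave no call. Of 8 ventricular genes 0 were called, with a median of -0.075, Irx3 at -0.15 (adjusted p = 0.842), Myl3 at -0.09 (adjusted p = 0.863) and Myl2 at -0.06 (95% interval -0.19 to 0.08). The 19 cardiomyocyte genes had 0 calls and a median of -0.018, with Mybpc3 at -0.16 (adjusted p = 0.602) and Tnnc1 at -0.07. None of 18 natriuretic peptide and secretory granule genes was called (median 0.042), the clearance receptor gene Npr3 being at 0.58 (adjusted p = 0.343). Skeletal muscle genes gave 0 calls of 10 and a median of -0.055, with Myl1 at 0.33 and Myh4 at 0.15.

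Fat cell markers were above 0 between the sets without passing. Of 10 measured adipocyte genes all 10 were above 0, against 10569 of all 22179 genes tested. Of the 10, 7 were higher at an unadjusted p under 0.05, against 3.95% of all genes, but 0 were called (median 0.86). The lipid droplet gene Cidec lay between 3.46 and 6.18 in Bmp10-high and between 3.29 and 4.68 in Bmp10-low hearts (1.25, adjusted p = 0.326). Adipoq, the adiponectin gene, was at 0.97 (adjusted p = 0.360) and Ucp1, the brown fat uncoupling protein gene, at 1.91 (adjusted p = 0.662). Their summed linear level, as log2 of its mean per gene, ran from 7.09 to 8.39 in Bmp10-high and from 7.05 to 7.92 in Bmp10-low hearts. With the mean of the adipocyte list as a covariate, added after the data were seen, 3 genes were called (Cacna2d2, Hamp and Cxcl13) and Vsig4 was not (adjusted p = 0.0809).

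Markers of the heart's other cell types gave no call in any list, with medians from -0.0076 to 0.38. Of these lists, endocardium and valve had 4 of 8 genes higher at an unadjusted p under 0.05 (limma), against 3.95% of all genes. Epicardium and mesothelium had 5 of 12, extracellular matrix 9 of 35, fibroblast 4 of 13 and smooth muscle 2 of 9. Endothelium had 1 of 12, neuron and Schwann cell 1 of 16 and lymphatic endothelium 0 of 6. In these lists 0 genes were lower at that p, against 2.81% of all genes. Endocardium and valve genes had the highest median among these lists (8 measured, median 0.38), with Chad, the chondroadherin gene, at 0.51 (adjusted p = 0.236). Epicardium and mesothelium genes had a median of 0.24 over 12, with Upk3b at 0.74 (adjusted p = 0.485) and Lrrn4 at 0.29 (0.459). Smooth muscle genes had 0.19 over 9 (Cnn1 at 0.75, adjusted p = 0.239, and Myh11 at 0.28), fibroblast genes 0.15 over 13 (Gsn at 0.23 and Dpt at 0.28) and extracellular matrix genes 0.14 over 35. In the matrix list Comp, a cartilage matrix protein gene, did not overlap between the sets (4.44 to 4.92 against 3.35 to 4.40) and gave 0.63 (adjusted p = 0.0752), and the fibulin gene Fbln1 gave 0.32 (adjusted p = 0.201). Endothelial genes were at 0.066 over 12 (Ramp2 at 0.20 and Cldn5 at 0.31), lymphatic genes at 0.0086 over 6 (Pdpn at 0.22, Reln at -0.10) and neuron and Schwann cell genes at -0.0076 over 16 (Mbp at 0.21, Dbh at -0.12).

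Markers of blood cells and of other organs gave no call either. Medians were -0.0053 for 8 neutrophil genes (Mmp9 at 0.30, S100a8 at -0.17), 0.026 for 8 lymphocyte genes (Cd3g at 0.20, Cd79a at 0.14) and 0.048 for 2 erythroid genes (Slc4a1 at 0.12, Epb42 at -0.03). They were -0.064 for 11 hepatocyte genes (Ahsg at 0.70, adjusted p = 0.394, and Apoa2 at -0.14) and -0.037 for 9 lung and thymus genes (Dntt at 0.23, Sftpc at -0.16).

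Among genes of metabolism and of the response to reperfusion none was called between the sets. The 29 immediate early genes, which are induced within minutes of stimulation, had a median of 0.26. Of these, 28 were above 0, against 10569 of all 22179 genes tested. At an unadjusted p under 0.05, 11 were higher, against 3.95% of all genes, among them Myc at 0.61 (adjusted p = 0.239) and Fosl2 at 0.41 (adjusted p = 0.279). Fatty acid genes had a median of -0.019 over 25 (Cpt1a at 0.20, Ucp3 at 0.25), oxidative phosphorylation genes -0.023 over 30 (the ATP synthase gene Atp5g1 at -0.53, adjusted p = 0.363, and Ndufv2 at -0.12) and clock genes 0.039 over 17 (Bhlhe40 at 0.34, Arntl at -0.22).

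**Figure D4:**
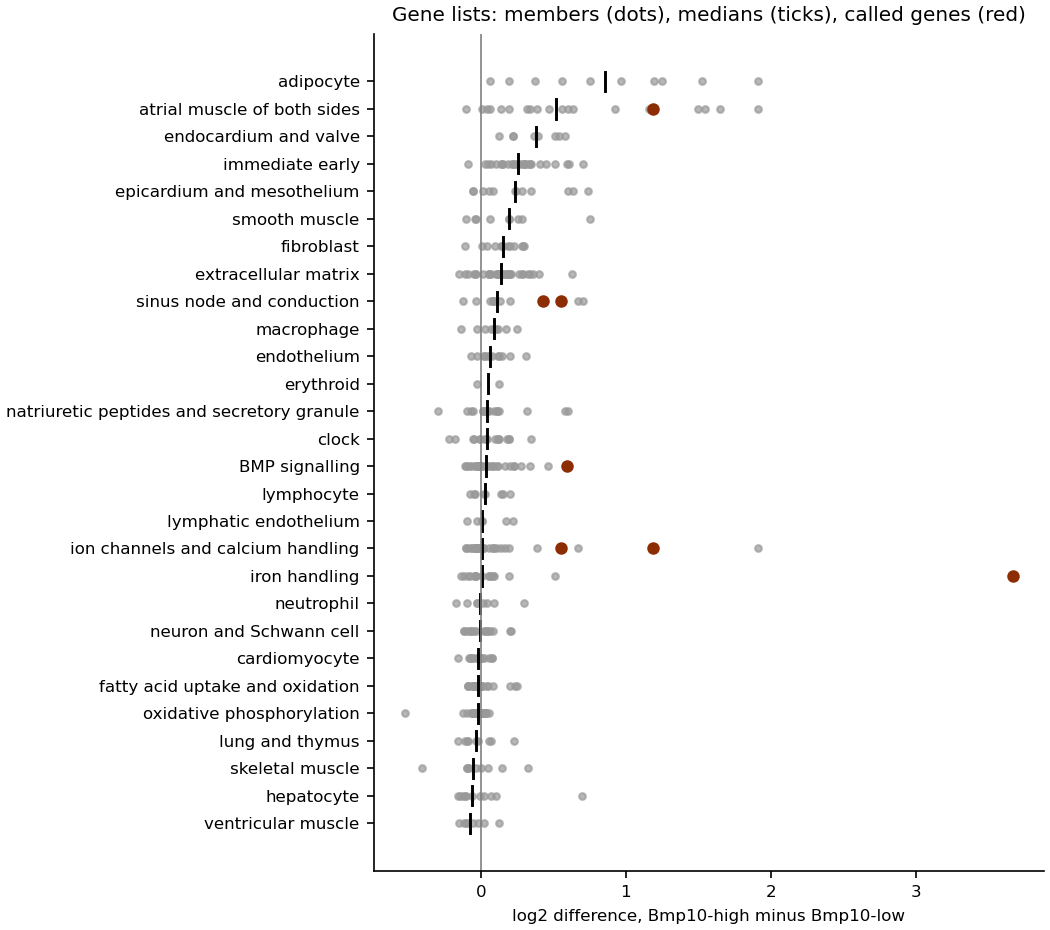
Log2 differences, Bmp10-high minus Bmp10-low, of the measured members of each gene list (dots), with the list medians (black ticks) and the called genes in red. Red dots appear for Hamp, Cacna2d2, Cacna1d, Rgs6 and Id2, and among these lists, which leave out the marker list that Hamp alone represents, the adipocyte list has the highest median at 0.86.

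Within sample groups, all 16 called genes were higher in the Bmp10-high hearts. They were called in the fit over these same hearts, so the shared sign is a description and no independent support. Differences ran from 0.18 to 3.55 at ZT0 (6 hearts against 1), from 0.42 to 3.50 in wild type at ZT12 (3 against 4) and from 0.20 to 4.18 in the hearts labelled knockout (1 against 4). For Hamp the values were 3.55, 3.50 and 4.18, and for Cacna2d2 they were 1.02, 1.22 and 1.30. Cxcl13 gave 2.58, 3.16 and 1.58, Vsig4 gave 1.58, 1.82 and 0.62, and Id2 gave 0.18, 0.73 and 0.75. No gene had a difference that varied between sample groups past the threshold (0 of 22179 genes by limma's F test). At an unadjusted p under 0.05 there were 823 (3.71%), Id2 among them (limma adjusted p = 0.9999). In 2 of the groups a set is a single heart, whose own spread is taken from the others.

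**Figure D5:**
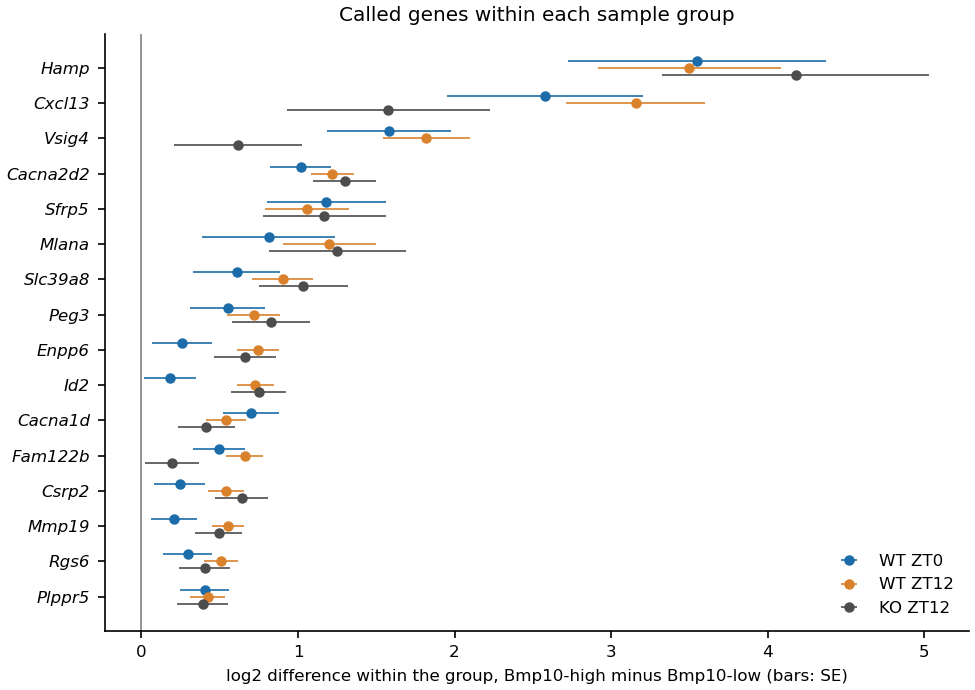
Log2 difference, Bmp10-high minus Bmp10-low, of the 16 called genes within wild type at ZT0 (6 hearts against 1), wild type at ZT12 (3 against 4) and the hearts labelled knockout at ZT12 (1 against 4). Bars are SE from the interaction model. Every point lies above 0, for genes that were called in the fit over these same hearts. Id2 ranges from 0.18 at ZT0 to 0.75 in the knockout group.

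Putting the Bmp10 set into the model changed which genes were called between times of day and genotypes. For wild type at ZT12 against ZT0, 226 genes were called with the set in the model (1.02%) and 250 without it (1.13%), of which 182 were called in both fits, 68 only without it and 44 only with it. Between the hearts labelled knockout and wild type at ZT12, 125 were called with the set (0.564%) and 162 without it (0.73%), with 119 in both fits, 43 only without it and 6 only with it. None of the 16 genes above was called in either comparison in either fit. For Hamp the difference between wild-type times went from -0.64 without the set to 0.94 with it, and for Cxcl13 from -0.82 to 0.31 (adjusted p 0.446 to 0.839). Without the set, Cacna2d2 was -0.49 at ZT12 against ZT0, and 0.017 with it. The time count was 141, 130 and 135 without wild-type ZT0 replicate 1, wild-type ZT12 replicate 2 and wild-type ZT12 replicate 7, and the genotype count 79 without wild-type ZT12 replicate 3.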

How the data were processed

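Total RNA (300 ng per heart) was hybridised to Affymetrix arrays, 1 per heart. Per the submitters' processing notes the authors made the deposited values with RMA, which corrects background, normalizes quantiles and summarises probe sets, and the deposited values were taken as log2, since they ran from 0.208 to 12.88. The version of RMA is not given in the sources used here. Of 41345 probe sets, 23521 list 1 gene in the platform annotation, 1814 list several and 16010 none, and only the first were used, the one of highest mean standing for a gene. Entrez identifiers of 23328 were found in the RefSeq table, and 0 symbols changed.

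Log2 values were fitted with limma 3.58.1 in R 4.3.3 (lmFit, eBayes without trend) with sample group and Bmp10 set as terms, over 22179 genes without Bmp10. Tests were two-sided with Benjamini-Hochberg adjustment, and the code was tested on simulated data. The interaction was tested by F test. Alternatives were other thresholds, Bmp10 as a continuous term, other covariates, filters, normalizations, a variance trend, the replicate number as a block and leaving out each array. Same-numbered arrays of different groups deviated from their group means with correlations of -0.0717 to 0.0739, and the main fit did not pair them. Correlations over all genes cannot exclude a day or batch that same-numbered hearts shared. The labels call the replicates biological, and the number of arrays limits the precision.

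The sets, the gene lists and the tests were chosen with earlier results of these data known, the lists in part from that earlier work. Genes were named by a rule: Bmp10 and Hamp, the 12 largest rises and falls among called genes without clone names, predicted genes and small RNAs, the 3 called genes of smallest p per list or the 2 of smallest p where none was called, and members of the atrial, sinus node and ventricular lists. Outside this rule, Nr1d1, Alb, Ucp1, Slc40a1, Hmox1 and Cacna1h were also given by value. So were the BMP list members Acvrl1, Eng, Id1, Id3, Smad6, Smad7 and Chrdl1. The rule's correlations with Bmp10 are not given, because Bmp10 falls into 2 clusters. Promoter windows come from the RefSeq table of GRCm38.p6.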

Additional observations from a re-analysis of the deposited data

Results flagged for a closer look

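Values of Bmp10 and the 16 called genes were examined within each Bmp10 set for a single array far from the rest. Of these 34 combinations of gene and set, 3 held one by Dixon's test, which chance alone marks in about 1 of 20. The combinations share the same hearts and mix the sample groups, so that rate is only a rough guide. All 3 flagged values were among the 10 Bmp10-high hearts. Cacna2d2 was 4.944 in wild-type ZT0 replicate 3, below the next lowest heart at 5.207. Cxcl13 was 8.939 in wild-type ZT12 replicate 2, above the next highest heart at 7.487. Rgs6 was 5.097 in wild-type ZT0 replicate 5, below the next lowest at 5.315. The cause was not tested.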

How the results depend on the processing

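The split leaves 1 Bmp10-low heart at ZT0 and 1 Bmp10-high heart among those labelled knockout, and 3 of the called genes, Cacna1d, Sfrp5 and Plppr5, had a mean under 4 and fell out where dim genes were left out. Counts of genes higher in Bmp10-high hearts (16 as reported) and lower (0) changed by more than 1.5 times in several settings, and the cause was not tested. Without the sample group in the model 36 were higher and 2 lower. A fit of the variance trend gave 28, all probe sets taken one by one 5 and wild-type arrays only 5. The settings chosen after seeing the data gave 6 without the 4 arrays with Myl7 under 6, 4 with the atrial list mean, 3 with the adipocyte list mean and 1 with wild-type ZT12 arrays only (Cacna2d2). With the replicate number as a block, 2 were called (Cacna2d2 and Hamp), and the time and genotype counts were 109 and 73. Whether same-numbered hearts shared a day or batch is not given in the labels. Genes with a mean above 4 only gave 347 for time and 261 for genotype, and the variance trend 241 for genotype. Leaving out each array gave 4 to 28 genes higher, 0 to 1 lower, 0 to 0 for the interaction, 130 to 235 for time and 79 to 128 for genotype; without wild-type ZT0 replicate 4, wild-type ZT12 replicate 1 or 7 or knockout replicate 5, 1 gene was lower. Over the 19 arrays left out, Cacna2d2, Hamp and Cxcl13 passed in 19, Vsig4 in 18, Slc39a8 and Cacna1d in 17, Id2 and Sfrp5 in 16, Mmp19 in 15, Peg3, Enpp6 and Csrp2 in 14, Fam122b in 12, Rgs6 in 10, Plppr5 in 8 and Mlana in 4. All 16 stayed above 0 in each of these. Among 61 named genes, values with the opposite sign numbered 14, none of them past the test. Without the sample group they were Cpt1a (-0.021), Ucp3 (-0.013), Arntl (0.55) and Apoa2 (0.023). Epb42 was 0.025 with the replicate block, 0.042 with wild-type arrays only or without knockout replicate 1, 0.010 without wild-type ZT12 replicate 4, 0.015 without the 4 arrays, and 0.039 and 0.040 with the atrial and adipocyte means. With the atrial mean Nppa was -0.096 and Myl1 -0.077, and with the adipocyte mean Tnnc1 was 0.014.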
